A study of Homo sapiens with 4 samples.

Results

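Interferon-stimulated genes are the genes that a cell turns on when interferon reaches its surface. The 45 genes described here were taken by gene symbol from 35979 symbols measured in NCI-H1048 cells, a human small cell lung cancer line that resembles tuft cells, the chemosensory cells of the airway and gut lining. Poly(A) RNA was sequenced from 4 libraries. In 2 libraries the cells had received guide RNAs against COLCA2, each library with its own guide, and the labels give the genotype as COLCA2 knockout. In 1 library they had received a guide against POU2F3 (POU2F3 knockout), and in 1 a non-targeting guide (labelled WT). The labels give no drug or cytokine treatment for any of the libraries. POU2F3 is the transcription factor that defines tuft cells, and the series' title names COLCA2, with C11orf53, as a co-activator in tuft cell-like small cell lung cancer. The delivery of the guides, the time after it, and whether clones or pools were sequenced are not given in the sources used here. Of the 45 genes, 42 passed a minimum mean of 20 normalized counts over the 4 libraries; OAS2, OASL and EPSTI1 did not.

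Type I interferons bind the IFNAR1 and IFNAR2 receptor chains, and the kinases JAK1 and TYK2 then start a signal that reaches the nucleus through STAT2 and IRF9, subunits of a complex that binds a promoter element called the ISRE (interferon-stimulated response element). Interferon gamma acts through IFNGR1 and IFNGR2, and its signal reaches promoters at GAS elements (gamma-activated sites). The induced genes encode sensors of viral RNA and DNA, effectors that block viral entry, translation and assembly, and feedback inhibitors. Many are also expressed at a low level in epithelial and tumour cells to which no interferon was added.

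The deposited values are normalized counts, that is, whole reads divided by 1 factor for each library, from totals of 21587741 to 29632382 reads. Normalized counts of POU2F3 were 14602 in the non-targeting library, 3677 and 2351 with COLCA2 gRNA 1 and 2, and 1449 in the POU2F3 library. For COLCA2 the values in the same order were 5585, 3119, 3541 and 1393. Both targeted genes were thus lower in their own targeted libraries than in the non-targeting library, and COLCA2 was lowest with POU2F3 gRNA. The 10 tuft cell markers summed to 47007 normalized counts in the non-targeting library and to 10189 to 15423 in the targeted ones. Most of each sum came from SOX9 and from POU2F3, itself a targeted gene. The 5 neuroendocrine markers, mostly SYP and INSM1, summed to 198 in the non-targeting library and to 90.6 to 94.8 in the targeted ones. Both marker sums thus moved with the same contrast as the genes below, and their part in those differences was not tested. The 8 leukocyte markers summed to 61.2 to 98.4, highest in the non-targeting library, with CD3E and FCGR3A at 0 in every library. The 5 fibroblast and endothelial markers summed to 1106 to 1286 normalized counts, most of it COL1A1. In bulk RNA, fewer cells expressing a gene and less RNA per cell cannot be told apart.

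Differences are given as log2 ratios of (normalized count + 1) to the non-targeting library. The POU2F3 and non-targeting groups hold 1 library each, so these ratios have no replicate check within them, and the 2-fold calls carry no test (a count model with its own assumption follows further on). A gene is called higher or lower at a 2-fold ratio, which for COLCA2 both guides must reach. The COLCA2 and POU2F3 ratios share the same non-targeting library, so a high or low value there moves both. Against it, 7 of the 42 genes (16.7%) were at least 2-fold higher with POU2F3 gRNA, where 6.73% of all 14940 genes past the minimum were. These were GBP1, GBP2, IFITM1, IFITM2, IFITM3, IFI44 and IFI6. With both COLCA2 gRNAs 8 of 42 (19.0%) were at least 2-fold higher, against 5.79% of all genes: GBP1, GBP2, IFITM1, IFITM3, IFI44, IFI6, ISG15 and HERC6. With libraries scaled to equal totals these counts were 5 and 7, against 951 and 799 over all genes. IFI6 and IFITM3 were lost for POU2F3 and HERC6 for COLCA2. GBP2, counted in each of these, passed the minimum only through the targeted libraries, which leaves the other genes named. IFIT2 was the 1 gene (2.38%) at least 2-fold lower with POU2F3 gRNA, where 3.05% of all genes were lower, and none of the 42 was lower with both COLCA2 gRNAs, where 2.02% of all genes were. By itself COLCA2 gRNA 1 gave 8 members higher and none lower (6.44% and 3.19% of all genes), and COLCA2 gRNA 2 gave 11 higher and 2 lower (7.25% and 3.64%); the additions with gRNA 2 were BST2, IFI27 and IFITM2 above and DDX58 and IFIT2 below. Over the 42 genes the log2 ratios had a median of 0.13 in the POU2F3 library, 0.27 for COLCA2 gRNA 1 and 0.44 for gRNA 2, against -0.0037, -0.0052 and -0.0017 over all genes. GBP1 and GBP2 had the highest ratios of the 42 genes in each targeted library.

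**Figure D1:**
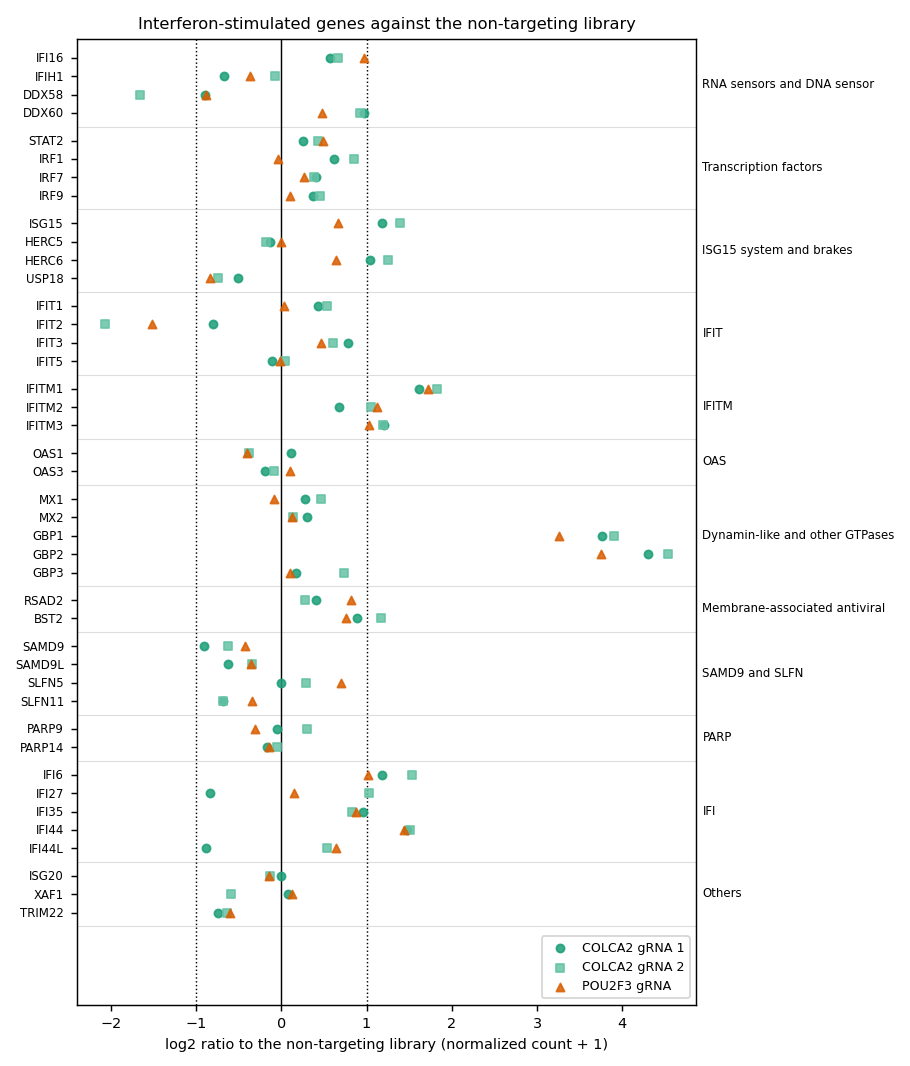
Log2 ratio of (normalized count + 1) to the non-targeting library for the 42 interferon-stimulated genes past the minimum, grouped by role; each point is 1 library and the dotted lines mark 2-fold. GBP1 and GBP2 lie above 3 in each of the targeted libraries, while IFIT2 and DDX58 lie below 0.

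The RefSeq promoter sequences (GRCh38.p14) of 6 of these genes are shown because they hold an element that members with different behaviour share. GBP1, IFITM1, IFITM3 and ISG15 were higher with both COLCA2 gRNAs, OAS3 stayed near its non-targeting level, and SAMD9 was below it in the targeted libraries. Each line gives the 160 bases directly before the RefSeq start, 5′ to 3′ on the gene's strand, with capitals for matches to the ISRE letters (GAAA, any 2 bases, GAAA) on either strand. Regions are chr1:89065209-89065368, minus strand for GBP1, chr11:313880-314039, plus strand for IFITM1, chr11:320861-321020, minus strand for IFITM3, chr1:1013337-1013496, plus strand for ISG15, chr12:112938314-112938473, plus strand for OAS3 and chr7:93117980-93118139, minus strand for SAMD9.
GBP1: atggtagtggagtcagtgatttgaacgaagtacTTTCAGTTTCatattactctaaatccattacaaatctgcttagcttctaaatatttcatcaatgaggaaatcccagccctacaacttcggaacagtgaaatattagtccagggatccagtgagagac
IFITM1: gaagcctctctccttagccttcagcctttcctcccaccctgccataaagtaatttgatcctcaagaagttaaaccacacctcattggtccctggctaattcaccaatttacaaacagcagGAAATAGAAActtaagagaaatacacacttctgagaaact
IFITM3: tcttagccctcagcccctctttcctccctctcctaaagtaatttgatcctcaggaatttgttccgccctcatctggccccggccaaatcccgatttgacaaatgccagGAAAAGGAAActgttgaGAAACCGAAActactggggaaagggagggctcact
ISG15: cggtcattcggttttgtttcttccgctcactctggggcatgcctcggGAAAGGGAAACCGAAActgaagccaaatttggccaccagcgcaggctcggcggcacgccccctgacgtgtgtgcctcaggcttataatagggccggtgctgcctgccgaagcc
OAS3: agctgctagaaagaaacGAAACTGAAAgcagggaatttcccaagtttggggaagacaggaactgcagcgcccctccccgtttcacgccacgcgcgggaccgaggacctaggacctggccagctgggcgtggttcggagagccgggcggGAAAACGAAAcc
SAMD9: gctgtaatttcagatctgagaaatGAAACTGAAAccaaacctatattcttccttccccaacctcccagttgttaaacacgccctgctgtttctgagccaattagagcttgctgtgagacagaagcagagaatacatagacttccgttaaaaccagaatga
IFITM3 and OAS3 each hold a pair of separate ISRE matches, and in ISG15 a pair overlaps. In IFITM1 a further match runs across the start and is not in capitals. In GENCODE 29 the spans of all 6 genes begin upstream of the RefSeq start. The printed window is thus not the only possible promoter of any of them.

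The guanylate-binding proteins are large GTPases that interferons induce and that assemble on intracellular bacteria and on the vacuoles around them. GBP3, GBP1 and GBP2 lie next to each other on the minus strand of chromosome 1, at chr1:89006666-89022894, chr1:89052319-89065360 and chr1:89106132-89150456 in GENCODE 29. Normalized counts of GBP1 (ENSG00000117228) were 49.7 in the non-targeting library, 686 and 755 with COLCA2 gRNA 1 and 2, and 483 in the POU2F3 library. All of the targeted libraries stood far above the non-targeting one, and both COLCA2 libraries stood above the POU2F3 library. GBP1 was 13.8-fold (95% interval 10.4 to 18.7) and 15.2-fold (11.5 to 20.6) higher with the COLCA2 gRNAs and 9.72-fold (7.31 to 13.2) higher with POU2F3 gRNA, intervals that cover counting error only. The COLCA2 log2 ratio was 3.83 ± 0.10 (mean ± SD of 2 guides), and that of POU2F3 gRNA 3.26.

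GBP2 (ENSG00000162645) had 12.4 normalized counts in the non-targeting library, from 13 reads, 264 and 310.5 with COLCA2 gRNA 1 and 2, and 179.6 in the POU2F3 library. It passed the minimum only through the targeted libraries. The order was that of GBP1, with both COLCA2 libraries highest and the non-targeting library lowest. These values gave folds of 21.3 (12.2 to 40.5), 25.01 (14.4 to 47.6) and 14.5 (8.28 to 27.6), the widest intervals among the genes called higher. GBP3, at 92.6, 105, 155 and 99.9 normalized counts in the same order, was above the non-targeting library by 0.11 with POU2F3 gRNA and by 0.18 and 0.74 on the log2 scale with the COLCA2 gRNAs. GBP genes resemble each other in sequence, so reads may be split between them in the deposited counts.

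MX1 and MX2, dynamin-like GTPases that act against influenza viruses and retroviruses, did not follow GBP1 and GBP2. MX1 was well expressed, with 1495 normalized counts in the non-targeting library, 1817 and 2057 with the COLCA2 gRNAs, and 1413 with POU2F3 gRNA. Its COLCA2 values were the higher ones, with a log2 ratio of 0.37 ± 0.13 (SD, n = 2), and the POU2F3 library lay at -0.081. MX2 was low throughout, at 26.7, 33.2, 29.4 and 29.4 normalized counts in the same order.

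The IFITM proteins sit in endosomal and surface membranes and hinder the fusion of enveloped viruses, and their genes form a cluster on chromosome 11 with IFITM1 at chr11:313506-315272 (plus strand) and IFITM3 at chr11:319669-327537 (minus strand). Normalized counts of IFITM1 were 251 in the non-targeting library, 771 and 890.3 with the COLCA2 gRNAs, and 828 with POU2F3 gRNA. The POU2F3 value fell between the COLCA2 guides, and all of the targeted libraries were about equally far above the non-targeting one. The log2 ratios of IFITM1 were 1.61, 1.82 and 1.72.

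IFITM3 had the highest level per kilobase of its longest transcript among the 45 genes in the non-targeting library, 3477 normalized counts per kb. The next were 431 for MX1, 376 for USP18, 373 for TRIM22, 298 for STAT2, 296 for SLFN11 and 294 for IFITM1. Normalized counts of IFITM3 were 2809 in the non-targeting library, 6475 and 6418 with the COLCA2 gRNAs, and 5742 with POU2F3 gRNA. IFITM3 was thus already abundant and was higher again in the targeted libraries, by 1.20 ± 0.009 (log2, SD, n = 2) with COLCA2 and by 1.03 with POU2F3, the latter just under 2-fold with libraries scaled to equal totals. IFITM2 was far lower, at 21.0, 34.2, 44.7 and 47.0 normalized counts in the order of non-targeting, COLCA2 gRNA 1, COLCA2 gRNA 2 and POU2F3 gRNA. The non-targeting library was again the lowest, but COLCA2 gRNA 1 gave a log2 ratio of 0.68 and so missed 2-fold, while COLCA2 gRNA 2 gave 1.05. The 3 IFITM genes are near-identical in parts and the annotated span of IFITM2 covers IFITM1, so the division of reads among them is uncertain.

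IFI44, a cytoplasmic protein induced by type I interferon, is encoded at chr1:78649796-78664078 on the plus strand. Its normalized counts were 61.1 in the non-targeting library, 172 and 176 with the COLCA2 gRNAs, and 167 with POU2F3 gRNA. The targeted libraries were close together, with log2 ratios of 1.48, 1.51 and 1.44.

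IFI6, a membrane protein of mitochondria and endoplasmic reticulum that limits cell death and flavivirus replication, had 219.6 normalized counts in the non-targeting library, 499 and 637 with the COLCA2 gRNAs, and 447 with POU2F3 gRNA. COLCA2 gRNA 2 was the highest and POU2F3 gRNA the lowest of the targeted libraries. The log2 ratio was 1.36 ± 0.25 (SD, n = 2) for COLCA2 and 1.02 for POU2F3, the latter just past 2-fold and just under it, at 0.99, when libraries were scaled to equal totals. IFI35 stayed under 2-fold, at 202, 394, 359.9 and 372 normalized counts in the same order, with log2 ratios of 0.96, 0.83 and 0.87. Its targeted libraries also stood above the non-targeting one.

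IFI44L, the neighbour of IFI44 on chromosome 1, and IFI27 were low and differed more between the COLCA2 guides than from the control. IFI44L had 20.1 normalized counts in the non-targeting library, 10.4 and 29.4 with COLCA2 gRNA 1 and 2, and 31.9 in the POU2F3 library. IFI27 had 24.8, 13.5, 51.7 and 27.7 in the same order, summed over its row on the main chromosome and an alternate-locus row that held nearly all of its reads. COLCA2 gRNA 1 was the lowest library for both genes and COLCA2 gRNA 2 was above the non-targeting library, so neither gene gave a direction for COLCA2.

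ISG15 is a ubiquitin-like protein that is attached to other proteins after interferon exposure. Normalized counts of ISG15 were 137 in the non-targeting library, 311 and 359.9 with the COLCA2 gRNAs, and 217 with POU2F3 gRNA. The POU2F3 library lay between the non-targeting and the COLCA2 libraries. The log2 ratio was 1.29 ± 0.15 (SD, n = 2) with COLCA2 and 0.66 with POU2F3 gRNA. ISG15, like IFI6, IFITM2 and IFITM3, overlaps a gene on the opposite strand, whose reads cannot be told apart without strand.

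HERC6, a relative of the ISG15 ligase HERC5, showed the same order of libraries as ISG15. Its normalized counts were 197 in the non-targeting library, 404 and 470.4 with the COLCA2 gRNAs, and 307 with POU2F3 gRNA. HERC5, the main ligase that joins ISG15 to human proteins and the neighbour of HERC6 on chromosome 4, was level: 458, 417, 406 and 457 in the same order. USP18, the protease that removes ISG15 and also blocks signalling at IFNAR2, lay the other way. It had 801 normalized counts in the non-targeting library, 563 and 479 with the COLCA2 gRNAs, and 448 with POU2F3 gRNA. The non-targeting library was the highest, and the log2 ratios of USP18 were -0.51, -0.74 and -0.84, short of 2-fold.

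**Figure D2:**
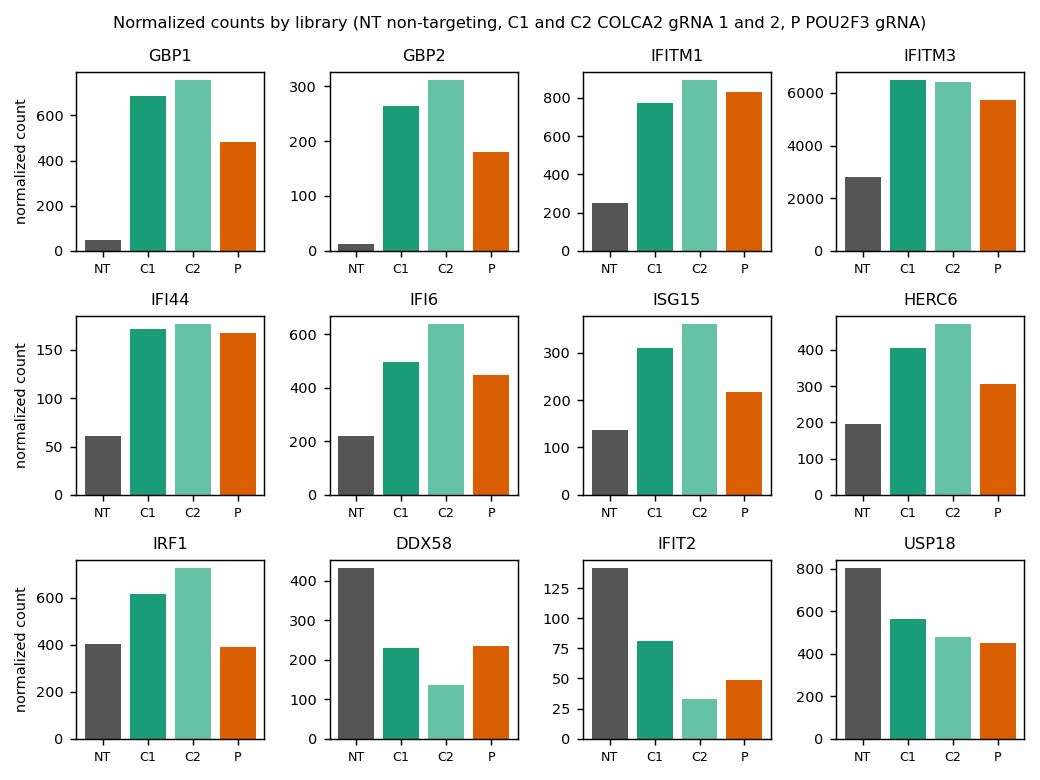
Normalized counts of 12 interferon-stimulated genes in the non-targeting (NT), COLCA2 gRNA 1 and 2 (C1, C2) and POU2F3 gRNA (P) libraries; each bar is 1 library, so no error bar is drawn, and each panel has its own axis from 0. The non-targeting bar is the lowest for GBP1, GBP2, IFITM1, IFITM3, IFI44, IFI6, ISG15 and HERC6 and the highest for DDX58, IFIT2 and USP18.

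Among the sensors, DDX58, which encodes the RNA helicase RIG-I, was below the control. Normalized counts of DDX58 were 432 in the non-targeting library, 231 and 136 with COLCA2 gRNA 1 and 2, and 234 in the POU2F3 library. COLCA2 gRNA 2 was the lowest, and COLCA2 gRNA 1 and POU2F3 gRNA were alike at log2 ratios of -0.90 and -0.88, against -1.65 for COLCA2 gRNA 2. DDX58 therefore missed the 2-fold call with COLCA2 through gRNA 1 alone. IFIH1, the related helicase MDA5, had 652, 408, 621 and 506 normalized counts in the order of non-targeting, COLCA2 gRNA 1, COLCA2 gRNA 2 and POU2F3 gRNA.

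DDX60, a helicase linked to RIG-I signalling, was on the other side, with 141, 278, 268 and 197 normalized counts in the same order. IFI16, a sensor of DNA, had 1171 normalized counts in the non-targeting library, 1745 and 1864 with the COLCA2 gRNAs, and 2302 with POU2F3 gRNA. For IFI16 the POU2F3 library was the highest, with a log2 ratio of 0.98, whereas for DDX60 it was the lowest of the targeted ones, at 0.48. The sensors as a set therefore had no common direction.

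Of the transcription factors that drive these genes, STAT2, IRF9 and IRF7 differed little from the control. STAT2, a subunit of the ISRE-binding complex, had 977, 1161, 1318 and 1366 normalized counts in the same order of libraries. IRF9, the DNA-binding subunit of that complex, had 321, 415, 439 and 343. IRF7, which amplifies type I interferon production, had 561, 742, 734 and 674, all from a row for an alternate locus, with the main-chromosome row at 0. For these 3 genes the non-targeting library was the lowest and no log2 ratio went beyond 0.48.

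IRF1 is a transcription factor that acts downstream of interferon gamma on GBP and antigen presentation genes. It was higher in both COLCA2 libraries than in the 1 POU2F3 library, a difference not called by the count model further on. Normalized counts of IRF1 were 403 in the non-targeting library, 618 and 726 with the COLCA2 gRNAs, and 391 with POU2F3 gRNA. The POU2F3 and non-targeting libraries were alike and both COLCA2 libraries were higher, with log2 ratios of 0.62 and 0.85 against -0.043. IRF1 also overlaps genes on the opposite strand.

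The IFIT genes, whose proteins bind foreign RNA ends and block their translation, lie side by side on chromosome 10. Normalized counts of IFIT2 (chr10:89283694-89309276, plus strand) were 141 in the non-targeting library, 80.9 and 32.9 with COLCA2 gRNA 1 and 2, and 48.7 in the POU2F3 library. The non-targeting library was the highest, but the COLCA2 guides were more than 2-fold apart, with log2 ratios of -0.80 and -2.07 around the POU2F3 value of -1.52. IFIT2 was not called lower for COLCA2, because gRNA 1 did not reach 2-fold.

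The other IFIT genes did not share this direction. IFIT3 had 120.3, 208, 183 and 167 normalized counts in the order of non-targeting, COLCA2 gRNA 1, COLCA2 gRNA 2 and POU2F3 gRNA. IFIT1 had 82.1, 111, 120.0 and 83.9, and IFIT5 had 273, 253, 282 and 271. IFIT3 was above the non-targeting library in each targeted one, IFIT1 was above it with the COLCA2 gRNAs, and IFIT5 was level. LIPA, on the opposite strand, overlaps IFIT1, IFIT2 and IFIT3; whether strand was used in the counting is not given in the sources used here.

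The OAS enzymes make oligoadenylates that activate the nuclease RNase L, and OAS3 was the one well expressed member. It was abundant and level, with OAS3 at 1521 normalized counts in the non-targeting library, 1327 and 1432 with the COLCA2 gRNAs, and 1636 with POU2F3 gRNA. OAS1 was near the minimum, at 24.8, 27.0, 18.8 and 18.5 in the same order. OAS2 had 4 reads with the non-targeting guide and at most 1 in the others, OASL had 1 read in 1 library and none elsewhere, and EPSTI1, a gene first described in epithelial and stromal cell co-culture, had none. A count of 0 allows up to 3 reads in a library, so these genes are below what this depth can compare.

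BST2 (tetherin), which holds budding virus particles at the cell surface, was above the control. It had 168 normalized counts in the non-targeting library, 313 and 379.9 with the COLCA2 gRNAs, and 285 with POU2F3 gRNA. COLCA2 gRNA 2 passed 2-fold at a log2 ratio of 1.17 and gRNA 1 did not, at 0.89. RSAD2 (viperin), an enzyme that makes a chain-terminating nucleotide, had 109, 145, 132 and 192 in the same order, highest with POU2F3 gRNA. RSAD2 overlaps CMPK2 on the opposite strand.

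SAMD9 and its neighbour SAMD9L on chromosome 7, growth suppressors that act against poxviruses, were highest in the non-targeting library. SAMD9 had 628 normalized counts there, 334 and 406 with the COLCA2 gRNAs, and 468 with POU2F3 gRNA, and SAMD9L had 135, 87.1, 106 and 105. SLFN11, which blocks DNA replication under stress and makes cells sensitive to DNA-damaging drugs, had 1487, 924, 928 and 1173 in the same order. The log2 ratios of SLFN11 were -0.69 and -0.68 with the COLCA2 gRNAs and -0.34 with POU2F3 gRNA, so the POU2F3 library lay between the COLCA2 and non-targeting libraries. SLFN5, its relative on chromosome 17, was level with COLCA2 gRNA 1 and higher with POU2F3 gRNA, at 853, 853, 1042 and 1382.

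TRIM22, a ubiquitin ligase with antiviral activity, had 1113 normalized counts in the non-targeting library, 662 and 714 with the COLCA2 gRNAs, and 731 with POU2F3 gRNA. The targeted libraries were alike and all below the non-targeting one, at log2 ratios of -0.75, -0.64 and -0.61; TRIM5 overlaps the gene on the opposite strand. PARP9 and PARP14, ADP-ribosyltransferase family members, stayed within 0.30 and 0.17 of the control on the log2 scale. The exonuclease gene ISG20 stayed within 0.14. XAF1, which promotes apoptosis, had 76.4, 80.9, 50.6 and 83.1 normalized counts in the order of non-targeting, COLCA2 gRNA 1, COLCA2 gRNA 2 and POU2F3 gRNA, lowest with COLCA2 gRNA 2.

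The COLCA2 guides give the only measure of spread. Over the 42 genes their median absolute log2 difference was 0.19, against 0.13 over all genes, and 3 genes (7.14%) were at least 2-fold apart between the guides, IFIT2, IFI27 and IFI44L, where 2.22% of all genes were. GBP1, GBP2, IFITM1, IFITM3, IFI44, ISG15 and HERC6 differed between the guides by at most 0.23, less than their COLCA2 ratios to the non-targeting library. For IFI6, gRNA 1 minus gRNA 2 was -0.35. Agreement between the guides does not show how far the lone non-targeting library, shared by these ratios, could vary. For DDX58 the guides differed by 0.76, close to the size of its ratio with gRNA 1.

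The direct comparison of POU2F3 with COLCA2 targeting does not use the non-targeting library. No member was at least 2-fold higher or lower in the POU2F3 library than in both COLCA2 libraries, where 0.442% and 0.924% of all genes were. The POU2F3 library lay below both COLCA2 libraries for 21 of the 42 genes (50%; 38.9% of all genes) and above both for 13 (31.0%; 35.6% of all genes). Its median log2 difference from the COLCA2 mean was -0.07, against -0.0039 over all genes. Among the genes below both were IRF1, by -0.66 and -0.89 against gRNA 1 and 2, GBP2, by -0.56 and -0.79, and GBP1, by -0.51 and -0.64. ISG15 differed by -0.52 and -0.73, and HERC6 by -0.40 and -0.61. On the other side SLFN5 was above both by 0.69 and 0.41, IFI16 by 0.40 and 0.30, and RSAD2 by 0.40 and 0.54. IFITM1 and IFI44 were level between the targeted libraries.

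**Figure D3:**
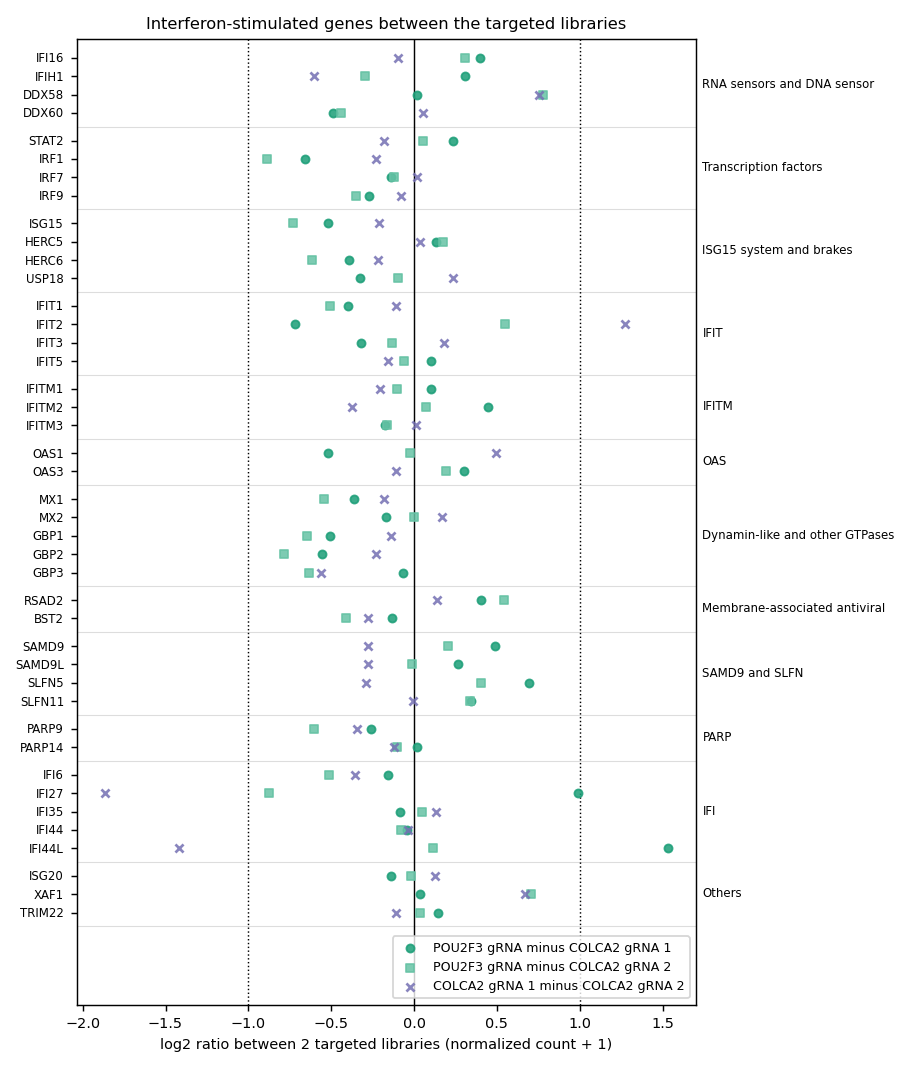
Log2 ratios of (normalized count + 1) between pairs of targeted libraries for the 42 interferon-stimulated genes past the minimum; green points set POU2F3 gRNA against COLCA2 gRNA 1 (circles) and 2 (squares), crosses set the COLCA2 guides against each other, and dotted lines mark 2-fold. IRF1, ISG15, HERC6, GBP1 and GBP2 lie below 0 against both guides, while the crosses for IFIT2, IFI27 and IFI44L lie beyond 2-fold.

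Because the deposited values come back as whole reads, a count model was also run on all 14940 genes, the quasi-likelihood test of edgeR with Benjamini-Hochberg adjustment. The difference between the COLCA2 guides supplies its 1 residual degree of freedom, and each gene's spread is moderated toward a trend over all genes. The lone POU2F3 and non-targeting libraries are assumed to vary like the COLCA2 guides. The p-values of the model rest on that assumption and on the shared trend, not on each gene's own spread alone. In this fit 13 members (31.0%) were higher with COLCA2 gRNA at an adjusted p under 0.05, against 11.4% of all genes, and 5 (11.9%) were lower, against 7.51%. With POU2F3 gRNA 9 (21.4%) were higher, against 8.45% of all genes, and 2 (4.76%) were lower, against 3.98%. GBP1 was among the higher genes in both comparisons, with fitted log2 ratios of 3.86 with COLCA2 and 3.29 with POU2F3 gRNA. IFITM3 was too, with 1.20 and 1.04. GBP2 was also called in both, but it entered the fit only through the targeted libraries, so its call is not independent of the filter. IFITM1 (0.000628 and 0.00118), IFI44 (0.0115 and 0.0246) and IFI6 (0.00494 and 0.0287) passed in both comparisons by the same edgeR adjusted p. ISG15 passed with COLCA2 (edgeR adjusted p = 0.00828) and not with POU2F3 (0.131), as did HERC6 (0.00788 and 0.102) and IRF1 (0.0224 and 0.942). The other genes higher by this fit were BST2, DDX60, IFI16 and IFI35 with COLCA2 and IFI16, IFI35 and SLFN5 with POU2F3 gRNA.

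Lower genes in the same fit were TRIM22 and USP18 in both comparisons, and DDX58, SAMD9 and SLFN11 with COLCA2. The edgeR adjusted p of TRIM22 was 0.00931 with COLCA2 and 0.0385 with POU2F3, and that of USP18 0.0314 and 0.0271. IFITM2, higher by the 2-fold rule with POU2F3, did not pass (edgeR adjusted p = 0.216, and 0.245 with COLCA2), and its POU2F3 log2 ratio was 0.88 at a pseudocount of 10. IFIT2, lower by the 2-fold rule with POU2F3, did not pass either (edgeR adjusted p = 0.159, and 0.12 with COLCA2). Between POU2F3 and COLCA2 gRNA no member passed after adjustment, where 0.107% of all genes were higher and 0.234% lower. IRF1, ISG15 and HERC6 were thus not called there, so a COLCA2 call without a POU2F3 call does not show that the libraries differ.

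The signalling genes that act before the interferon-stimulated genes were read from a list of 56 other pathway genes, of which 43 passed the minimum. With POU2F3 gRNA 4 of the 43 were at least 2-fold higher, and with both COLCA2 gRNAs 4 were, and none was 2-fold lower in either comparison; over all genes 6.73% and 5.79% were higher. CXCL10, counted in each, passed the minimum only through the targeted libraries, which leaves 3 others. Over the 43 genes the median log2 ratio stood at 0.23 for POU2F3 gRNA and 0.25 with the COLCA2 mean, against -0.0037 and -0.0086 over all genes. None of the 10 interferon genes on the list passed the minimum. IFNE, an epithelial type I interferon, had 9 reads with the non-targeting guide and 2, 3 and 2 in the others, IFNB1 had 1 read in 1 library, and 6 interferon genes had none at all. Transcripts of the ligands were therefore at or close to the floor of 3 reads in these cells.

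Of the receptor chains, IFNGR1, the ligand-binding chain for interferon gamma, was higher. It had 518 normalized counts in the non-targeting library, 1139 and 1334 with the COLCA2 gRNAs, and 1390.0 with POU2F3 gRNA. Its log2 ratios were 1.14, 1.36 and 1.42, whereas IFNAR1, IFNAR2, IFNGR2, IFNLR1 and IL10RB stayed within 0.40 of the control. JAK1 gave 0.14, 0.25 and 0.26 and TYK2 gave -0.017, 0.14 and 0.014 in the order of COLCA2 gRNA 1, COLCA2 gRNA 2 and POU2F3 gRNA.

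STAT3, which responds to interleukin-6 family cytokines, had 2104 normalized counts in the non-targeting library, 4351 and 4877 with the COLCA2 gRNAs, and 4541 with POU2F3 gRNA. SOCS3, a feedback inhibitor of cytokine receptors induced by STAT3, had 235, 620.0, 715 and 673 in the same order. STAT3 and SOCS3 were at least 2-fold higher in each targeted library.

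CXCL10, a chemokine gene induced by interferon gamma, had 1.91 normalized counts in the non-targeting library, from 2 reads, 50.8 and 80.0 with the COLCA2 gRNAs, and 36.1 with POU2F3 gRNA. Its folds were 26.6 (6.98 to 226), 41.9 (11.2 to 353) and 18.9 (4.92 to 161), with counting intervals that the few control reads make wide. As with GBP1 and GBP2, the COLCA2 libraries were highest and the non-targeting library lowest.

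**Figure D4:**
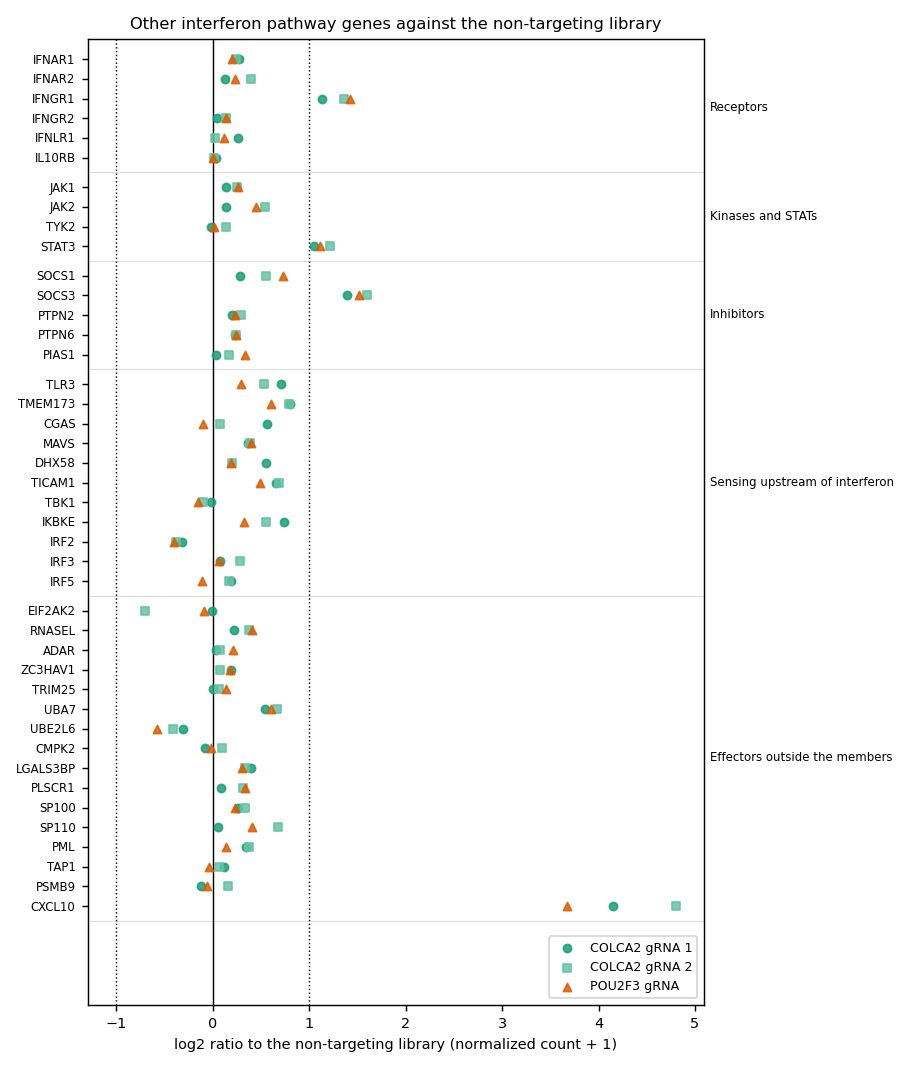
Log2 ratio of (normalized count + 1) to the non-targeting library for 42 of the 43 other interferon pathway genes past the minimum, by role; each point is 1 library and dotted lines mark 2-fold. IFNGR1, STAT3, SOCS3 and CXCL10 lie past 2-fold in each targeted library, and the remaining receptors stay within 0.40 of 0.

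ISRE letters were found both in members that were higher and in members that stayed level. RefSeq windows from 250 bases before to 50 bases after the start were found for 35 of the 45 genes; IFIT2, IFITM2, MX2, OAS2, OASL, IRF7, GBP2, SLFN5, USP18 and TRIM22 had none. ISRE letters (both strands) were present in 24 of 35 members (68.6%), against 4.38% of 27305 genes with a window, and GAS letters (TTCNNNGAA, which read the same on both strands) in 13 of 35 (37.1%), against 9.38%. The 2 motifs were counted separately, overlaps included. Among the members at least 2-fold higher in a comparison, 6 of 7 with a window held ISRE letters and 1 of 7, IFITM1, held GAS letters. Of the members within 1.5-fold of the control in all 3 targeted libraries, 8 of 11 held ISRE letters and 4 of 11 GAS letters. HERC6 was the higher member with neither. A match is a run of letters and was not tested as a binding site.

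**Figure D5:**
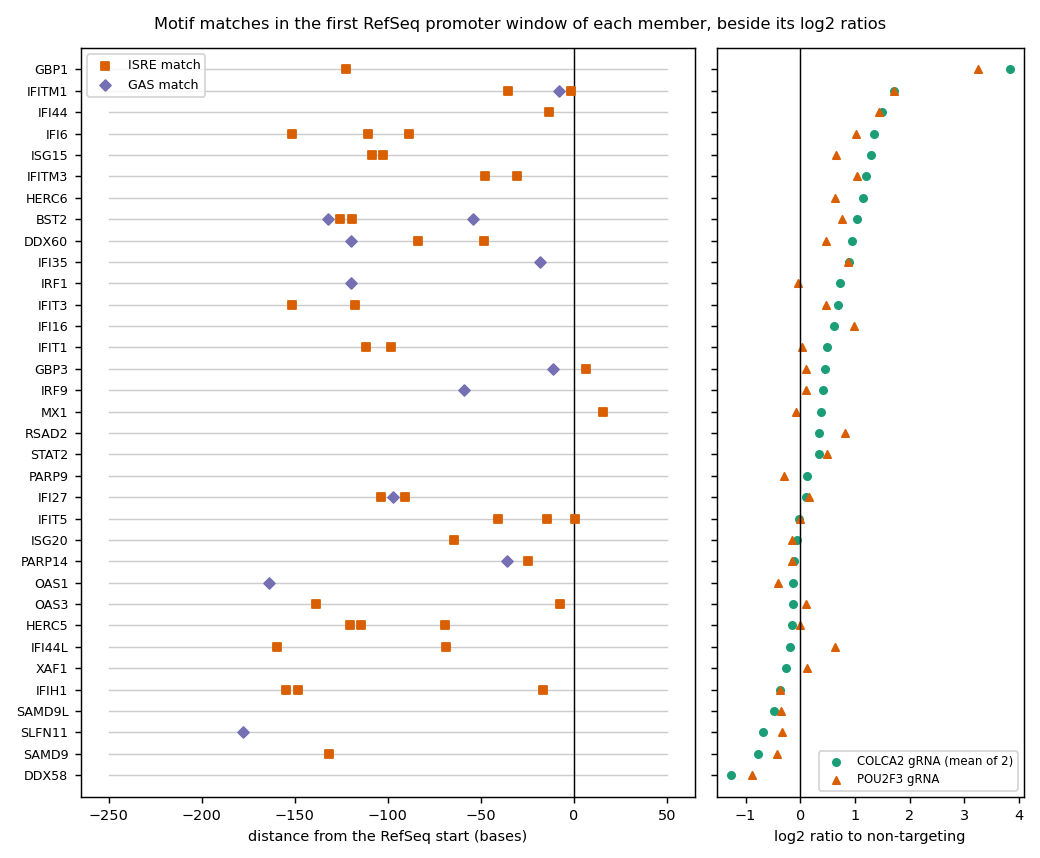
Positions of ISRE (squares) and GAS (diamonds) letters relative to the RefSeq start in the first promoter window of each member past the minimum, left, beside its log2 ratios to the non-targeting library, right (circles, mean of 2 COLCA2 guides; triangles, 1 POU2F3 library), sorted by the COLCA2 ratio. ISRE matches occur from the top of the order (GBP1, IFITM1) to genes near or below 0 (OAS3, SAMD9).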

How the data were processed

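Values were the normalized counts that the authors deposited per gene, a linear signal with no logarithm taken. The submitters' processing notes name Salmon, DESeq2 and hg38, without versions or roles; annotation and use of strand are not given in the sources used here. In each library 100% of values were whole multiples of 1 step (tolerance 1e-06 reads), so reads were recovered as normalized count times 1 factor per library. Whole values may also be rounded estimates. Rows of 1 symbol were summed (38145 rows, 35979 symbols; 2 members had 2 rows), and 14940 genes reached a mean of 20 across the 4 libraries.

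Ratios were log2 of (normalized count + 1), which understates changes of low genes; calls needed 2-fold. Fold intervals were conditional exact (Clopper-Pearson, 95%) on recovered reads and describe only counting error, because PCR copies without molecular identifiers are not separate molecules. Nothing in the labels says that the libraries came from separate cultures. edgeR 4.0.16 (quasi-likelihood, TMM, Benjamini-Hochberg over all genes, threshold 0.05) was run on recovered reads as an alternative and tested on simulated data. The simulation gave every library the same spread, so it could not test the assumption that the lone libraries vary like the COLCA2 guides. Other alternatives were scaling, pseudocounts of 0.1 and 10, no minimum or 100, thresholds of 1.5- and 4-fold, and leaving out each COLCA2 guide. Gene positions are from GENCODE 29, with IRF9 matched by symbol only, and 17 members overlap a gene on the opposite strand. Members and lists were chosen with earlier results of these data known. All members were open to naming; those at least 2-fold apart in any library, and the members of a role group, have values from every library, and of the pathway list the genes 2-fold apart with JAK1, TYK2 and the receptor chains are named; 1 further gene that the rule names is not reported here. CXCL10 and the ligands had few reads, so their values are imprecise.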

Additional observations from a re-analysis of the deposited data

How the results depend on the processing

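With no minimum on the mean, 2 of 44 members were at least 2-fold lower with POU2F3 gRNA, against 1639 of 24382 genes with any reads. With both COLCA2 gRNAs 1 was, against 1028 of those genes, and OAS2 was added in each. With a minimum of 100, 0 of 34 members were lower with POU2F3 gRNA, against 233 of 12159 genes. At 1.5-fold, 15 of 42 members were higher and 4 lower with POU2F3 gRNA, against 1822 and 1149 of all 14940 genes. With both COLCA2 gRNAs 14 were higher and 5 lower, against 1451 and 901 genes. IRF1 was the 1 of 42 lower with POU2F3 than with each COLCA2 gRNA, against 373 of 14940 genes, a similar share. At 4-fold, GBP1 and GBP2, 2 of 42 members, were higher in each comparison with the non-targeting library, GBP2 being past the minimum only through the targeted libraries. Over all 14940 genes 365 were higher with POU2F3 gRNA and 346 with both COLCA2 gRNAs. At this threshold 0 members were lower with POU2F3 gRNA, where 113 of all genes were. In the edgeR fit 2 were lower with POU2F3 gRNA, and 13 were higher and 5 lower with COLCA2 gRNA. Without 1 COLCA2 guide, the number lower with COLCA2 ranged from 0 to 2 (DDX58 and IFIT2 without gRNA 1). The number higher ranged from 8 to 11. Over all genes these ranges were 477 to 544 lower and 962 to 1083 higher. The number higher with POU2F3 than with COLCA2 gRNA ranged from 0 to 1 (IFI44L without gRNA 2), against 205 to 229 over all genes. The mean log2 ratio over the members with POU2F3 gRNA was 0.37 in place of the median of 0.13. Scaling to equal totals or upper quartiles shifted the all-gene median by no more than 0.078. Each of these left 5 members higher with POU2F3 gRNA, since IFI6 and IFITM3 came just under 2-fold, against 951 and 947 of all genes. Equal totals also left 7 higher with both COLCA2 gRNAs, without HERC6, against 799 of all genes. A pseudocount of 10 left 5 higher with POU2F3 gRNA, without IFI6 and IFITM2, against 874 of all genes. Counts not given here stayed within 1.5 times the reported count, and medians within 0.12, the SD between the guides; the POU2F3 minus COLCA2 median of -0.07 was -0.035 with equal totals. No ratio past 2-fold changed sign, but the COLCA2 ratio of IFI27, 0.098 as reported, was -0.077 from its row with the highest mean and -0.84 without gRNA 2. Single-gene ratios were compared for each gene, comparison and alternative setting, so the same gene counts many times. Of these, 214 kept their side of 2-fold, 12 lost it and 2 gained it. A change of the minimum cannot alter a gene's ratio, and the choice of row cannot alter a gene with a single row. Part of the 214 was therefore fixed in advance. No paired analysis was possible because only the COLCA2 group holds more than 1 library. Genes with few reads, such as GBP2, CXCL10, IFI27 and OAS1, are limited by depth, and the non-targeting library has no replicate.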

Other observations

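Further genes known to respond to interferon gamma were read after the values of GBP1 and GBP2 had been seen. The remaining genes of the GBP cluster stayed at low levels. GBP4 had 95.5 normalized counts in the non-targeting library, 81.9 and 76.4 with COLCA2 gRNA 1 and 2, and 80.6 in the POU2F3 library. In the same order GBP5 had 24.8, 22.8, 28.2 and 20.1. GBP6, which did not pass the minimum, had 23.9, 20.7, 17.6 and 15.9, and GBP7 had no reads. CXCL9, a chemokine gene outside that cluster, had at most 2 reads in a library. IDO1, a tryptophan-degrading enzyme that interferon gamma induces, was lower in the targeted libraries, at 822 normalized counts in the non-targeting library, 371 and 299 with the COLCA2 gRNAs, and 225 with POU2F3 gRNA, and log2 ratios of -1.15, -1.46 and -1.87. CD274, which encodes the immune checkpoint ligand PD-L1, was higher, at 27.7, 108, 82.3 and 44.5 in the same order. CIITA, the activator of MHC class II genes, was level at 112, 96.4, 95.3 and 94.0. Genes of the interferon gamma response thus lay on both sides of the control in the same libraries.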
